A study of Mus musculus with 48 samples.

Results

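The joints described here are Vκ joints with short insertions: junctions in which the mouse Igκ J segment Jκ1 was joined to the Vκ region with 1 to 4 bases between bait and prey that belong to neither alignment. They were selected on measured values, the prey position and the gap on the read, in every library: listed junctions with a prey position between 67500000 and 70660000 on chromosome 6 (mm9) and a gap of 1 to 4 bases between bait and prey on the read. This left 419825 rows, 5.78% of the 7265223 Vκ region rows and part of 8250887 rows in all. Each row is a sequenced read of a joint and copies made by PCR are kept, so values are given for rows as deposited and with each distinct joint (same prey position, strand, bait end, gap and inserted bases) counted once. The 419825 rows hold 42511 distinct joints, summed over both baits, and 338 of the 340 possible sequences of 1 to 4 bases. At the lower edge of the choice, 173332 rows had 1 inserted base and 5275047 had none. At the upper edge, 37387 rows had 4 inserted bases and 8788 had 5.

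The libraries come from Abelson kinase transformed mouse pro-B cells (vAbl), WT (clone B) or Ku70-/- (clone B1). Ku70 is a subunit of the ring that binds broken DNA ends for nonhomologous end joining (NHEJ). Each genotype is 1 clone, so Ku70 loss and any other difference between the clones cannot be told apart. Cells were cycling, or arrested with STI-571, an Abl kinase inhibitor, at 3 µM for 96 h together with DMSO, with L67 at 5 µM or with L82-G17 at 25 µM (both DNA ligase inhibitors, added on the same day). Each genotype and treatment was read from the Jκ1 coding end (JK1CE, the CE bait) and from the Jκ1 signal end (JK1SE, the SE bait), with 3 libraries each and 500000 read pairs per library, 48 libraries in all. The study's legends call its experiments biologically repeated, but no label ties the libraries to separate cultures, so p-values measure the spread between these libraries, which may be technical in part.

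RAG1/2 cuts next to a recombination signal and leaves a hairpin-sealed coding end and a blunt signal end. An opened hairpin can leave an overhang that, once filled in, reads as a palindrome of the coding end, the P nucleotides. Bases with no template can be added by terminal transferase (N nucleotides) or by other polymerases, and bases can be lost from either end before ligation. A short insertion can therefore be compared with the end beside it, and a palindrome at an end that lost no base is the pattern known from hairpin opening.

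The ends of both baits are shown first because every palindromic match is read against them. The CE bait ends at chr6:70672556-70672575 (minus strand), inside Igkj1, and a palindrome of 1 to 4 bases of its intact end reads G, GT, GTG and GTGG. The SE bait ends at chr6:70672536-70672555 (plus strand), and its palindromes read C, CA, CAC and CACA.
CE bait end: tgcctccaccgaacgtccac
SE bait end: agtggagtactaccactgtg

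The next sequences are among the 3 joints with the most rows in some of the groups, picked after their values were seen, with 20 bases on each side, bait first, and the insertion in capitals. The first is the joint with the most rows in arrested WT cells with DMSO: the CE bait had lost 2 bases, the Vκ end of Igkv12-44 at chr6:69764625-69764644 had lost none, and the insertion was the palindrome of the Vκ end. The second, to Igkv3-2 at chr6:70649039-70649058, and the third, to Igkv12-44 at chr6:69764628-69764647, carried the GT palindrome of an intact bait end and a Vκ end that had lost 3 bases. The fourth is the SE joint with the most rows in the same cells, to chr6:68387596-68387615 inside an intron of Igkv15-103. The fifth joined the SE bait, less 3 bases, to the intact signal end of Igkv16-104 at chr6:68376067-68376086. The sixth, from Ku70-/- cells with L67, had the GTG palindrome of an intact CE bait and joined Igkv12-41 at chr6:69808422-69808441, which had lost 8 bases. It held 1.23% and 1.40% of short insertions in libraries 1 and 3, and was in no other CE library. It does not stand for its genotype. The top 3 CE joints of Ku70-/- cells with DMSO had lost 24, 15 and 10 bait bases and were palindromic to neither end. The last pair are from cycling Ku70-/- cells, with the bait cut back by 36 bases (CE) and 40 bases (SE) and prey at chr6:68069480-68069499 and chr6:69537856-69537875, in no gene.
WT CE, Igkv12-44: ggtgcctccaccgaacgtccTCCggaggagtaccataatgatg
WT CE, Igkv3-2: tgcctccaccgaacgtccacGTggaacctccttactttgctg
WT CE, Igkv12-44 with bait palindrome: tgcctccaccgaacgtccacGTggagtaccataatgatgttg
WT SE, Igkv15-103 intron: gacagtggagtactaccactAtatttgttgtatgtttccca
WT SE, Igkv16-104: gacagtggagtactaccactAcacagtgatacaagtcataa
Ku70-/- CE, Igkv12-41: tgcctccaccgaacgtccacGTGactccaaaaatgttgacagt
Cycling Ku70-/- CE: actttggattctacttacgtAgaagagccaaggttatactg
Cycling Ku70-/- SE: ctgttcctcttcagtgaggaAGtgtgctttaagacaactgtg

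Libraries held 8294 to 385847 rows, and the 95% Wilson intervals of the short insertion share were 0.0641 to 1.88 percentage points wide (counting error only here and for every limit below, as copies are not independent molecules). Library 1 of the Ku70-/- DMSO group stood apart with both baits: its CE library had 324 distinct short insertion joints among 968 distinct Vκ joints, where the other two had 1075 and 979 among 13390 and 12473. Its SE library had 356 among 1012, where the other two had 1365 and 1198 among 13722 and 10989. Cycling Ku70-/- libraries were also thin, with 66 to 100 distinct short insertion joints from the CE bait and 18 to 58 from the SE bait. In these cycling libraries 6 CE joints were found in all 3 libraries and made up 28.4%, 39.2% and 20.4% of the short insertion rows, and 3 SE joints made up 34.5%, 51.9% and 24.9%. Of the cycling WT rows, 89.2% to 92.1% (CE) and 68.4% to 91.0% (SE) were joints also found in arrested WT libraries of the same bait. In Ku70-/- libraries at most 8.84% were.

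From the CE bait, short insertions made up about 1 in 8 Vκ rows in WT cells and far fewer in arrested Ku70-/- cells. The WT DMSO libraries had 12.8%, 12.9% and 12.8% of Vκ rows with a short insertion, a mean of 12.8% ± 0.0812 (SD, n = 3). The Ku70-/- DMSO libraries had 0.827%, 1.85% and 1.85%, a mean of 1.51% ± 0.591 (SD, n = 3), all below every WT library. Without library 1 the Ku70-/- mean was 1.85%. With 3 libraries against 3 the exact two-sided permutation test cannot go below p = 0.1, the value found here (adjusted p = 0.133 over 28 comparisons of the share), so no permutation test of 2 groups in this text can pass 0.05. Groups that did not overlap are named as such.

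The genotypes did not overlap in cycling cells either. Cycling WT libraries had 11.7%, 11.4% and 11.9% short insertions from the CE bait, and cycling Ku70-/- libraries had 9.82%, 7.80% and 8.99%, again all lower. From the SE bait the order was the other way in cycling cells: 1.199%, 1.07% and 1.42% in WT and 7.10%, 7.19% and 6.30% in Ku70-/-. In arrested cells with DMSO the SE values were 2.08%, 2.47% and 2.13% in WT and 0.382%, 1.49% and 1.13% in Ku70-/-, and the groups did not overlap.

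The difference between arrested and cycling cells could be compared between the genotypes. It is a difference of shares. Cycling Ku70-/- libraries averaged 712 short insertion rows among 7946 Vκ rows from the CE bait, and DMSO libraries 1662 among 107487. From the SE bait they averaged 290 among 4251 when cycling and 1471 among 146303 with DMSO. A lower share in arrested Ku70-/- cells thus stands beside more short insertion rows. From the CE bait the share was 1.19 percentage points higher with STI-571 and DMSO than in cycling cells in WT, and in Ku70-/- it was lower (difference −7.36 points). The difference between the genotypes was −8.55 points (exact permutation within genotype, two-sided, p = 0.005, the smallest this design gives, and adjusted p = 0.035 over 14 such differences). The null of this test is no effect in either genotype, so its p is not exact for equal effects in both. From the SE bait the WT difference was 0.994 points and the Ku70-/- difference −5.86 points, and the genotypes differed by −6.86 points (exact permutation p = 0.005, adjusted p = 0.035). With each joint counted once the CE value was −10.2 points and did not pass (exact permutation, adjusted p = 0.846), and the SE value turned to 7.11 points. Both rest on library 1 of Ku70-/- DMSO: counted once without it they were −18.7 and −1.14 points, and neither passed (exact permutation, adjusted p = 0.07 and 0.869). With only rows within 200 bp of a Vκ break site the values were −6.10 and −2.48 points and neither passed. None of the other 12 differences, which concern the inhibitors, the bait and the palindromic share, passed. Without the short insertion joints seen in all 3 cycling libraries of a genotype and bait, the values were −7.07 (CE) and −4.59 points (SE), and both passed. The part of the low number of distinct joints in cycling Ku70-/- libraries was not tested.

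The plot of the share by library shows these values beside the count of distinct joints.

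**Figure D1:**
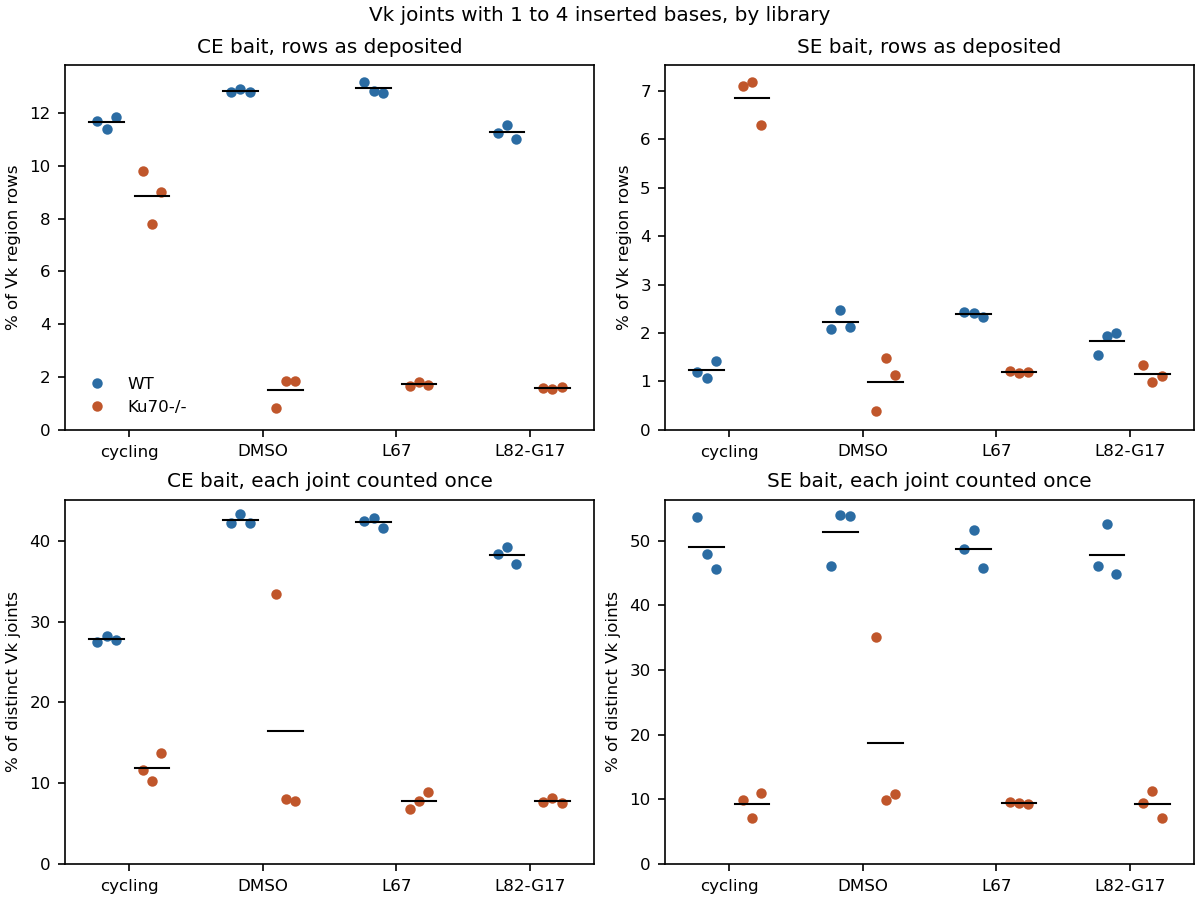
Share of Vκ region rows with a 1 to 4 base insertion (percent, y axis) in each library (points) with the group mean (black line), by treatment, genotype and bait, as deposited and with each joint counted once. As deposited, arrested Ku70-/- libraries lie between 0.382% and 1.85%; counted once, WT libraries lie between 27.5% and 54.0% and library 1 of the Ku70-/- DMSO groups stands at 33.5% (CE) and 35.2% (SE).

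Counting each joint once changed the level and, for the baits, the order. In WT cells with DMSO the share was 42.6% ± 0.624 (SD, n = 3) from the CE bait and 51.3% ± 4.52 (SD, n = 3) from the SE bait, where the deposited rows gave 12.8% and 2.22%. A distinct short insertion joint had 8.30 rows on average in the WT DMSO libraries from the CE bait and 5.86 from the SE bait. In Ku70-/- cells with DMSO the once-counted share was 33.5%, 8.03% and 7.85% from the CE bait and 35.2%, 9.95% and 10.9% from the SE bait. Without library 1 the means were 7.94% and 10.4%. WT lay above Ku70-/- without overlap in all 8 genotype comparisons when joints were counted once, cycling SE libraries included (49.1% against 9.34%). Direct joints collapsed unevenly in this counting. In cycling SE libraries a mean of 19161 direct rows gave 130 distinct direct joints in WT, and 1819 gave 149 in Ku70-/-. The once-counted share thus depends on how alike direct joints are, so these 8 comparisons are not read as a difference in insertion frequency. Once-counted contrasts with direct joints below carry the same limit.

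With the ligase inhibitors the share of deposited rows was within 1.56 percentage points of that with DMSO. In WT cells the CE share was 12.9% ± 0.224 with L67 and 11.3% ± 0.271 with L82-G17 (SD, n = 3 each), and the SE share was 2.39% ± 0.0564 with L67 and 1.83% ± 0.245 with L82-G17. The L82-G17 libraries of WT lay below the DMSO libraries without overlap with both baits, and the L67 libraries overlapped with them. Of the 8 inhibitor comparisons of the share as deposited, only these 2 were free of overlap (exact permutation, smallest adjusted p = 0.133). In Ku70-/- cells the CE share was 1.73% ± 0.0687 with L67 and 1.60% ± 0.0426 with L82-G17, and the SE share 1.196% ± 0.0202 and 1.15% ± 0.176. Without library 1 of the Ku70-/- DMSO groups all 4 Ku70-/- inhibitor means lay below DMSO, and with it all 4 lay above. The inhibitor libraries of Ku70-/- overlapped with DMSO in each case. Counted once, the Ku70-/- means lay below DMSO by 8.60 (L67) and 8.61 (L82-G17) points from the CE bait and 9.25 and 9.38 points from the SE bait. Without library 1 the DMSO means of 7.94% and 10.4% stood beside 7.85% and 9.42% with L67 and 7.84% and 9.29% with L82-G17. The compounds were used at different doses, so they are set side by side and not compared with each other.

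Most insertions were 1 or 2 bases long. In WT cells with DMSO and the CE bait, 38.2% of short insertions had 1 base, 40.0% had 2, 12.2% had 3 and 9.58% had 4. In Ku70-/- cells with DMSO the same shares were 33.6%, 29.0%, 24.7% and 12.7%, and 34.98%, 22.5%, 25.02% and 17.5% without library 1. With the SE bait, WT cells with DMSO had 60.5% of 1 base and 5.02% of 4 bases, and Ku70-/- cells had 37.1% and 11.4% (34.2% and 14.1% without library 1). The mean length with DMSO was 1.93 ± 0.0124 bases in WT and 2.16 ± 0.149 in Ku70-/- from the CE bait, and 1.58 ± 0.0428 and 2.02 ± 0.190 from the SE bait (SD, n = 3 each), without overlap. Library 1 of Ku70-/- had the shortest insertions of its group with both baits, 1.99 and 1.81 bases. Counted once, the differences were −0.0836 bases (CE) and −0.0760 bases (SE), in the opposite direction. Without library 1 as well they were 0.0117 and −0.0425 bases, both with overlap. No inhibitor group was free of overlap with DMSO in mean length as deposited, while counted once 2 of the 8 inhibitor comparisons were.

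The inserted bases of WT CE joints were rich in G, the first base of the bait palindrome. With DMSO, 46.9% of inserted bases were G, 29.4% T, 12.1% C and 11.6% A in WT, and 29.7% G, 23.4% T, 18.1% C and 28.8% A in Ku70-/-. Without library 1 the Ku70-/- means were 34.6% G, 25.8% T, 17.5% C and 22.1% A. The G and C share was 59.2%, 58.8% and 58.9% in the WT libraries and 39.2%, 52.3% and 51.9% in the Ku70-/- libraries, with library 1 lowest. With the SE bait A led in both genotypes, with 35.3% in WT and 31.4% in Ku70-/- (29.4% without library 1). The G and C share there was 38.2% ± 3.25 in WT and 44.2% ± 1.77 in Ku70-/- (SD, n = 3 each). Counted once the SE order turned, with 44.8% in WT and 42.6% in Ku70-/-.

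Single sequences carried much of this. In WT CE libraries with DMSO the leading sequences were GT with 26.2%, 26.3% and 25.9% of short insertions, G with a mean of 15.2% and A with 7.97%. Counted once, T (11.6%) and A (10.8%) came before GT (9.66%) and G (7.97%). GT was far scarcer in Ku70-/- libraries, at 2.52%, 1.97% and 5.83%, all below WT. There A led with 14.4%, followed by GTG with 0.126%, 15.2% and 10.9% and T with 8.09%. Counted once, A had 18.95%, T 10.1%, G 7.23%, GT 2.85% and GTG 1.90%. In SE libraries A, T and AG led in both genotypes, with means of 27.7%, 20.9% and 9.85% in WT and 14.7%, 11.1% and 6.19% in Ku70-/-. Counted once the means were 17.3%, 14.3% and 8.02% in WT and 16.2%, 12.5% and 4.32% in Ku70-/-, where C (6.65%) and G (5.49%) then stood above AG. Of the 8.53% that AG had in library 3 of Ku70-/-, the joint at position 69537856, printed above, made up 6 points. GTG and GTGG, the longer bait palindromes, had 5.49% and 6.93% of WT CE insertions with DMSO, and 2.48% and 2.36% counted once.

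Across inserted sequences, 14 of the 67 tested differed between Ku70-/- and WT cells with DMSO and the CE bait, 20.9% (limma on log2 shares, adjusted p under 0.05), 5 higher and 9 lower in Ku70-/-. GT was lower by a log2 difference of −3.03 ± 0.392 (SE; limma adjusted p = 0.00294), with 34.4 against 261 per 1000 short insertions. GA (−1.27 ± 0.213 log2) was lower too. GGG had 0.333 rows per library in Ku70-/- and 151 in WT. Of the 9 lower sequences 6 averaged fewer than 10 rows per Ku70-/- library and were tested because of their WT rows, so the split of directions is not read as a result. AT (2.52 ± 0.311 log2), AG (2.28 ± 0.273 log2) and TG (1.84 ± 0.421 log2) were higher, and of these AT had 17.2 against 1.92 per 1000. These and the SE values below are shares of the short insertions, which were scarcer in Ku70-/-. AT, AG and TG averaged 29.3, 30.3 and 8.67 rows per Ku70-/- library and 86.7, 130 and 32.7 per WT library. Whether their share of all Vκ rows differed was not tested. The count was 36, 23 and 26 without library 1, 2 or 3 of Ku70-/- and 9 without library 2 of WT. Leaving out a library can change how many sequences are tested, so here and below such counts are not set against the shares called. Among SE insertions 6 of 40 sequences differed, 15%, 3 in each direction. GA (3.25 ± 0.494 log2), AC (1.98 ± 0.356 log2) and AT (1.60 ± 0.434 log2) were higher in Ku70-/-, and T (−0.92 ± 0.244 log2) and A (−0.91 ± 0.196 log2) lower. Counted once the first 3 passed again, while T and A overlapped between the genotypes and did not pass. The third lower sequence, AGTG, was tested because of its WT rows, and its call is not read as a result. It had 17.2 per 1000 in WT and no row among 4413 in Ku70-/-, which allows up to 0.680 per 1000 (3 counts over the group; the rows include copies, so this covers counting error only). Without library 3 of Ku70-/-, or library 1 or 2 of WT, 3 sequences passed.

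Sequences were next compared between arrested and cycling WT cells. From the CE bait 17 of 64 sequences, 26.6%, passed, all higher with DMSO than in cycling cells. The cycling libraries held 2362 to 3490 short insertions each, so 47 of the 64 sequences averaged fewer than 10 rows per cycling library and were tested because of their DMSO rows. This held for 15 of the 17 that passed, so neither their number nor their shared direction is read as a result. The other 2 were GTGG, with 69.3 per 1000 short insertions with DMSO against 32.7 in cycling cells (1.12 ± 0.244 log2), and TCC, with 25.9 against 12.1 (1.09 ± 0.281 log2). Counted once neither passed: GTGG had 2.36% and 2.31%, with overlap, and TCC 1.04% and 0.716%. TC, GGT and GGG, whose fitted differences led, averaged 3.33, 0.667 and 1 row per cycling library and 661, 132 and 151 per DMSO library, in which there were many more short insertions in all. The count was 9 and 10 without library 1 or 2 of DMSO and 30 without library 1 of cycling cells. Among SE insertions 4 of 33 sequences differed, 12.1%, and the 3 that were higher with DMSO averaged fewer than 10 rows per cycling library and were tested because of their DMSO rows, so their calls are not read as results. C had 5.67 rows per cycling and 648 per DMSO library. G and AGTG had 30.3 and 17.2 per 1000 with DMSO and no row among 752 in cycling cells, which allows up to 3.99 per 1000, with the same limit to counting error. CAA (−2.28 ± 0.362 log2) was lower with DMSO, and it passed again when joints were counted once (3.49% against 9.48%). In Ku70-/- cells 1 of 20 CE sequences, 5%, differed with arrest: A had 144 against 274 per 1000 (−0.90 ± 0.143 log2). In the cycling libraries the joints with an A insertion at positions 68069499 and 69808452 held means of 10.3% and 5.43% of the CE short insertions. The count of sequences that passed was 3 and 2 without library 1 or 2 of DMSO, and 2 without library 1 of cycling cells. Counted once no sequence passed, and A had 20.02% ± 2.60 in cycling and 18.95% ± 3.39 in DMSO libraries (SD, n = 3 each). Among SE sequences 8 of 20 did, 40%. The 6 that were higher with DMSO all averaged fewer than 10 rows per cycling library and were tested because of their DMSO rows, so their number is not read as a result. AT, CC and CA, for example, had 1, 1.33 and 0.333 rows per cycling library and 85.3, 55.3 and 24.7 per DMSO library. CTG (−3.02 ± 0.772 log2) and AG (−1.87 ± 0.608 log2) were lower. CTG had 82.6 per 1000 in cycling libraries, where 1 joint with prey at chr6:68684467-68684486 held 8.26% of the short insertions. AG had 253 per 1000, where the joint at position 69537856 held 24.9%. These 2 falls thus rest almost wholly on 1 joint each. None of the 8 SE sequences passed when joints were counted once, and 0 to 5 sequences passed when 1 library was left out.

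With the inhibitors 1 sequence passed the test. In WT CE libraries 1 of 97 sequences differed between L67 and DMSO, 1.03%: GT had 240 against 261 per 1000 (−0.12 ± 0.0222 log2, limma adjusted p = 0.00808). It did not pass with joints counted once, nor without library 1 or 2 of WT DMSO. With L82-G17 limma called 0 of 76 sequences in WT CE libraries, and 10 had an unadjusted p under 0.05. In WT SE libraries limma called 0 of 43 with L67 and 0 of 34 with L82-G17, with 5 and 4 at an unadjusted p under 0.05. In Ku70-/- libraries limma called 0 of 28 and 0 of 26 from the CE bait and 0 of 30 and 0 of 25 from the SE bait, with 3, 2, 2 and 0 at an unadjusted p under 0.05.

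Palindromes of an adjoining end were the main kind of short insertion from the WT CE bait. An insertion was called palindromic when all its bases equalled the reverse complement of the last bases of the bait or the first bases of the prey as joined. In WT cells with DMSO 73.6%, 73.7% and 74.1% of CE short insertions were palindromic, and in Ku70-/- cells 21.01%, 40.9% and 49.6%, with every WT library higher. Cycling cells had 74.1% ± 5.12 in WT and 39.9% ± 6.27 in Ku70-/- (SD, n = 3 each). Bait palindromes outnumbered prey palindromes in WT DMSO libraries, 55.9% against 19.2%, and an insertion can match both. The SE bait derives from an end without a hairpin. Its palindromic share counts a match to either end, though, and the prey of some SE joints was a Vκ coding end, which forms a hairpin. The SE share is therefore not a reference free of hairpin ends. With DMSO it was 34.8%, 29.7% and 26.0% in WT and 16.0%, 18.3% and 22.6% in Ku70-/-. In cycling cells the SE shares were 7.35% ± 8.75 in WT and 11.3% ± 8.21 in Ku70-/- (SD, n = 3 each), with overlap, so that WT libraries were 22.8 points higher with DMSO than when cycling, without overlap (exact permutation p = 0.1, the smallest possible with 3 against 3). Counted once, the CE shares with DMSO were 38.5% ± 0.781 in WT and 25.2% ± 0.613 in Ku70-/-, and the SE shares 16.4% ± 2.56 and 18.5% ± 2.24 (SD, n = 3 each), so that the SE order turned. Counted once the cycling SE shares were 4.74% ± 1.94 in WT and 19.2% ± 4.69 in Ku70-/-, with every Ku70-/- library higher, and the WT difference with arrest was 11.7 points, again without overlap. With L67 the palindromic share was below DMSO in WT CE libraries (70.9% against 73.8%) and above it in Ku70-/- SE libraries (26.3% against 18.97%), both without overlap. These were 2 of the 8 inhibitor comparisons of this share (exact permutation, smallest adjusted p = 0.175). Counted once the WT CE libraries overlapped (37.8% against 38.5%) and the Ku70-/- SE libraries did not (22.996% against 18.5%). With L82-G17 the once-counted share was higher in WT CE libraries (43.8%) and Ku70-/- SE libraries (21.3%) and lower in WT SE libraries (13.4% against 16.4%), also without overlap. Counted once, 4 of the 8 inhibitor comparisons of this share were free of overlap. The WT L82-G17 libraries held fewer short insertion rows than DMSO, 20012 to 21879 against 44284 to 46317 (CE). From the SE bait they held 2144 to 2532 against 6974 to 8104. The part of this depth in the once-counted shares was not tested. A single base matches an end by chance in some joints, so the comparison of intact with trimmed ends follows.

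The match depended on whether the coding end had lost bases. Of WT DMSO insertions beside an intact CE bait 81.1%, 80.5% and 81.5% were the bait palindrome, and beside a trimmed bait 17.6%, 17.8% and 16.4%. In Ku70-/- libraries with DMSO the shares were 100%, 91.9% and 94.6% beside an intact bait and 10.9%, 9.50% and 13.8% beside a trimmed one; library 1 had 14 rows with an intact bait, the others 553 and 612. Insertions of 2 to 4 bases alone gave 84.6% against 12.9% in WT and 96.3% against 4.31% in Ku70-/- (94.4% against 2.44% without library 1). Counted once, the shares were 43.8% against 15.6% in WT and 92.8% against 11.1% in Ku70-/- (89.2% against 10.3% without library 1). The intact and trimmed shares did not overlap in any of the 8 CE groups, cycling and inhibitor groups included. In cycling cells they were 80.0% against 22.0% in WT and 88.9% against 25.7% in Ku70-/-, whose intact ends rest on 94 to 159 rows.

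Prey ends showed a like contrast in WT, where 0.285% of CE short insertions at a break site joined a signal end. With DMSO 69.2%, 73.1% and 72.4% of CE insertions beside an intact prey end were its palindrome, against 5.83%, 5.30% and 4.96% beside a trimmed prey. In Ku70-/- libraries the intact share was 0%, 77.5% and 87.9%, where 0 of 23 rows in library 1 allows up to 13.04%, against 11.1%, 7.51% and 6.77%. These Ku70-/- prey ends are of both kinds, as 33.1% of the rows at a break site joined a signal end. The SE bait of WT gave no such contrast when all lengths were counted: with DMSO the bait palindrome made up 23.7%, 7.16% and 12.2% of insertions beside an intact signal end and 22.8%, 27.5% and 22.3% beside a trimmed one. Insertions of 2 to 4 bases did differ there, with 16.7%, 8.37% and 6.69% beside an intact signal end and 1.57%, 3.54% and 0.189% beside a trimmed one with DMSO. With L67 these were 13.1%, 18.6% and 20.6% against 7.58%, 0.117% and 1.73%. Cycling WT libraries did not show the contrast, with a mean of 1.14% (lowest 0%) against 0%. They averaged only 145 rows with an intact and 104 with a trimmed bait, all lengths included. Counted once, the DMSO means for 2 to 4 bases were 5.19% and 1.09%. Intact SE baits of Ku70-/- DMSO libraries had 0%, 12.99% and 7.41%, on 26, 77 and 54 rows, and 0 of 26 rows allows a share of up to 11.5%. At the Vκ end of WT SE joints the palindrome made up 9.15%, 5.27% and 6.79% beside intact ends and 17.6%, 19.1% and 15.4% beside trimmed ends. Intact prey ends of Ku70-/- SE joints had 0%, 62.8% and 74.8%, on 47, 94 and 163 rows, and trimmed ones 11.1%, 11.7% and 11.7%. These prey ends are of both kinds and were not split, as 56.8% of the rows at a break site joined a coding end. Counted once the Ku70-/- means were 10.1% beside intact and 11.7% beside trimmed prey ends (15.2% and 11.7% without library 1).

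**Figure D2:**
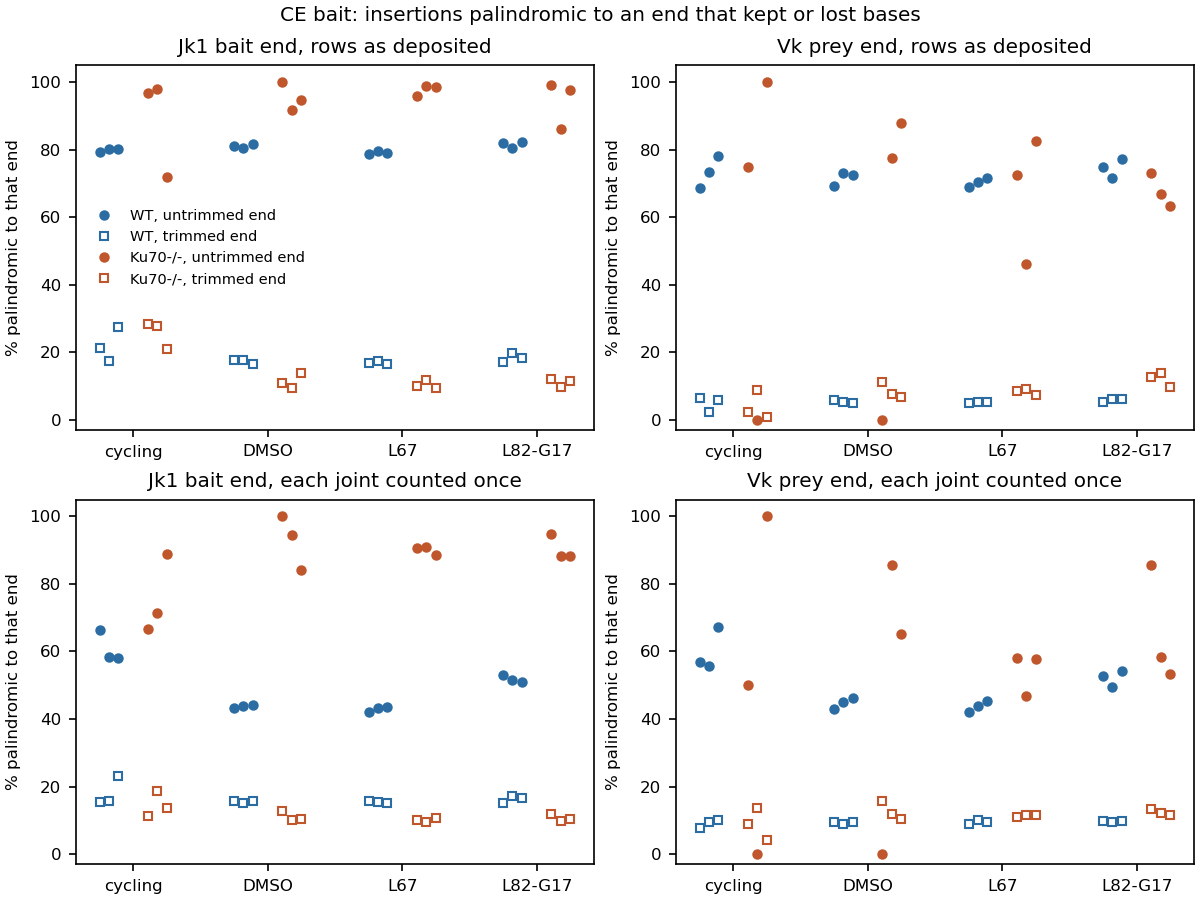
CE bait libraries: share of short insertions (percent, y axis) that are the palindrome of the Jκ1 bait end or of the Vκ prey end, where that end was untrimmed (filled) or trimmed (open), by treatment and genotype, 1 point per library, as deposited and counted once. As deposited, the WT DMSO libraries sit at 80.5% to 81.5% beside untrimmed baits and at 16.4% to 17.8% beside trimmed baits.

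As deposited, palindromes at the intact CE bait were longer in most arrested Ku70-/- libraries than in WT, with library 1 of DMSO as the exception. The Ku70-/- DMSO libraries averaged 367 such rows but only 38 distinct joints (543.5 and 56.5 without library 1). Counted once, their mean length was 2.44 bases (2.66 without library 1). No once-counted WT length is set beside it, so the contrast is described for deposited rows only. The values that follow are for rows as deposited. The mean length of palindromes at the intact bait with DMSO was 2.15, 2.17 and 2.17 bases in WT and 2.00, 2.77 and 2.89 bases in Ku70-/-. In WT cells with DMSO 22.9% of them had 1 base, 51.9% had 2, 11.1% had 3 and 14.05% had 4. In Ku70-/- DMSO libraries the means were 10.5%, 39.6%, 33.9% and 16.0%, with all 14 rows of library 1 at 2 bases. Without library 1 they were 15.8%, 9.40%, 50.9% and 23.98%. With L67 the Ku70-/- shares were 24.9%, 24.5%, 37.3% and 13.2%, and with L82-G17 14.1%, 30.1%, 35.5% and 20.4%. The mean length was 2.11 to 2.16 bases in the arrested WT groups and 2.39 to 2.62 bases in the arrested Ku70-/- groups. The GT form alone held 50.0% to 55.7% of these palindromes in the arrested WT groups.

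**Figure D3:**
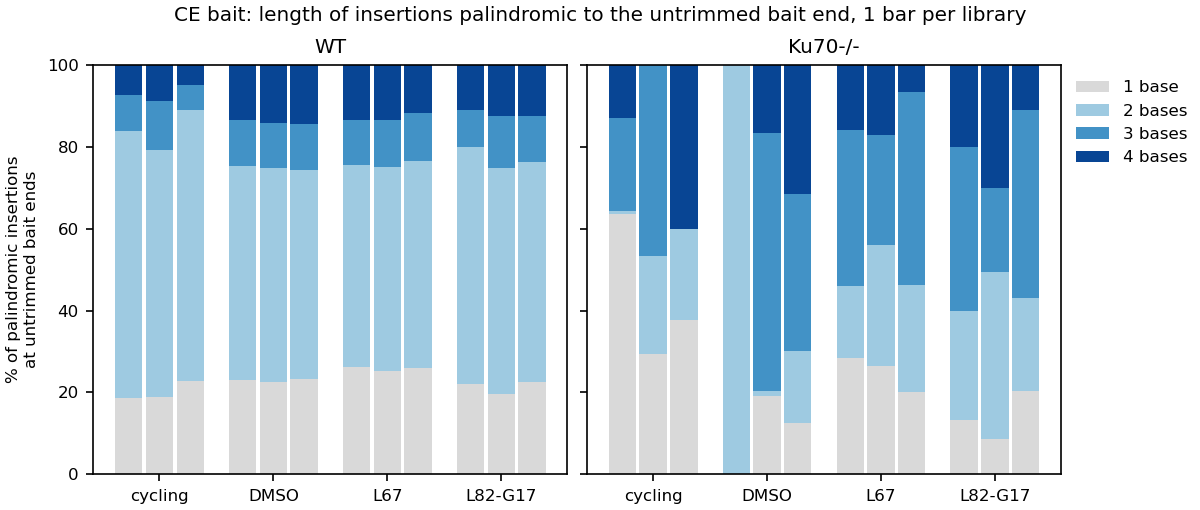
CE bait, rows as deposited: stacked shares (percent, y axis) of palindromic insertions of 1, 2, 3 and 4 bases at the untrimmed bait end, 1 bar per library, by treatment and genotype. The 2 base form leads in WT bars, with a mean of 51.9% with DMSO, and the Ku70-/- DMSO bar filled by the 2 base form is library 1, with 14 rows.

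Short insertion joints of WT cells kept their CE bait end more often than direct joints did. With DMSO the bait was intact in 60.1%, 61.3% and 60.2% of WT short insertion rows and in 42.7% ± 0.132 of direct rows, those with no inserted or shared base (SD, n = 3). A further 20.6% of short insertion rows and 37.2% of direct rows had lost 2 bases. Ku70-/- libraries kept the bait in 1.76%, 25.9% and 29.7% of short insertion rows and in 0.198% of direct rows. Counted once, the intact bait share was 35.7% ± 0.147 in WT and 4.30% ± 3.72 in Ku70-/- (SD, n = 3 each), with 0.309%, 4.93% and 7.66% in the Ku70-/- libraries. Direct joints counted once had 28.9% and 0.226%. The Vκ end was intact in 20.8% ± 1.04 of WT CE rows with DMSO and had lost 3 bases in 37.6% ± 0.557. In Ku70-/- it was intact in 2.98%, 9.27% and 9.002%, of rows at a break site.

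With the SE bait the relation was the other way in deposited WT rows. With DMSO the bait was intact in 35.8%, 38.9% and 42.6% of short insertion rows and in 97.9% ± 0.153 of direct rows, and the prey in 62.8% ± 3.29 and 98.5% ± 0.112 (SD, n = 3 each). Counted once, the order turned with DMSO: the bait was intact in 38.9% of short insertion joints and 36.01% of direct joints, with overlap, and the prey in 53.3% and 43.7%, without overlap. It turned with L67 too (bait 38.2% and 34.9%, prey 52.9% and 44.1%), but not at the bait with L82-G17 (41.99% and 46.4%) nor in cycling cells (bait 50.5% and 82.8%, prey 48.01% and 77.9%). Signal ends that had lost 1, 2 or 3 bases made up 13.6%, 17.4% and 13.9% of short insertion rows at the bait. In Ku70-/- the bait was intact in 3.84% ± 0.844 of short insertion rows and 11.6% of direct rows. Both ends were intact in 13.7% of WT SE short insertion rows with DMSO, and in 3.22% of WT CE rows.

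The median loss from the bait with the CE bait was 0 bases in every arrested WT library and 10 to 16 in arrested Ku70-/- libraries. The median Vκ loss was 3 bases in WT and 12 to 18 bases in those Ku70-/- libraries. In cycling Ku70-/- libraries the median bait loss was 26 to 34 bases from the CE bait and 26 to 29 from the SE bait. Direct joints in the same cycling libraries had median bait losses of 10 bases (CE) and 4 to 6 (SE). Counted once the medians of short insertions were 19 to 24 (CE) and 17 to 21 (SE), and those of direct joints 11 to 15.5 and 8 to 9, so the gap was smaller and the ranges still did not overlap. All 8 genotype comparisons of the intact bait share, and all 8 of the intact prey share, were free of overlap, with WT higher, as deposited and counted once. The intact Vκ position was itself taken from SE joints of arrested WT libraries. The prey comparisons, above all those of arrested cells with the SE bait, are therefore not independent of genotype. With the inhibitors the intact bait share of WT CE rows was 59.1% (L67) and 58.7% (L82-G17), both below DMSO without overlap (differences of −1.46 and −1.82 points). These were 2 of the 8 inhibitor comparisons of the intact bait share (exact permutation, smallest adjusted p = 0.156). Counted once, L67 overlapped with DMSO and L82-G17 was higher by 0.978 points. The intact prey share was 20.8% and 21.4%, overlapping with DMSO.

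**Figure D4:**
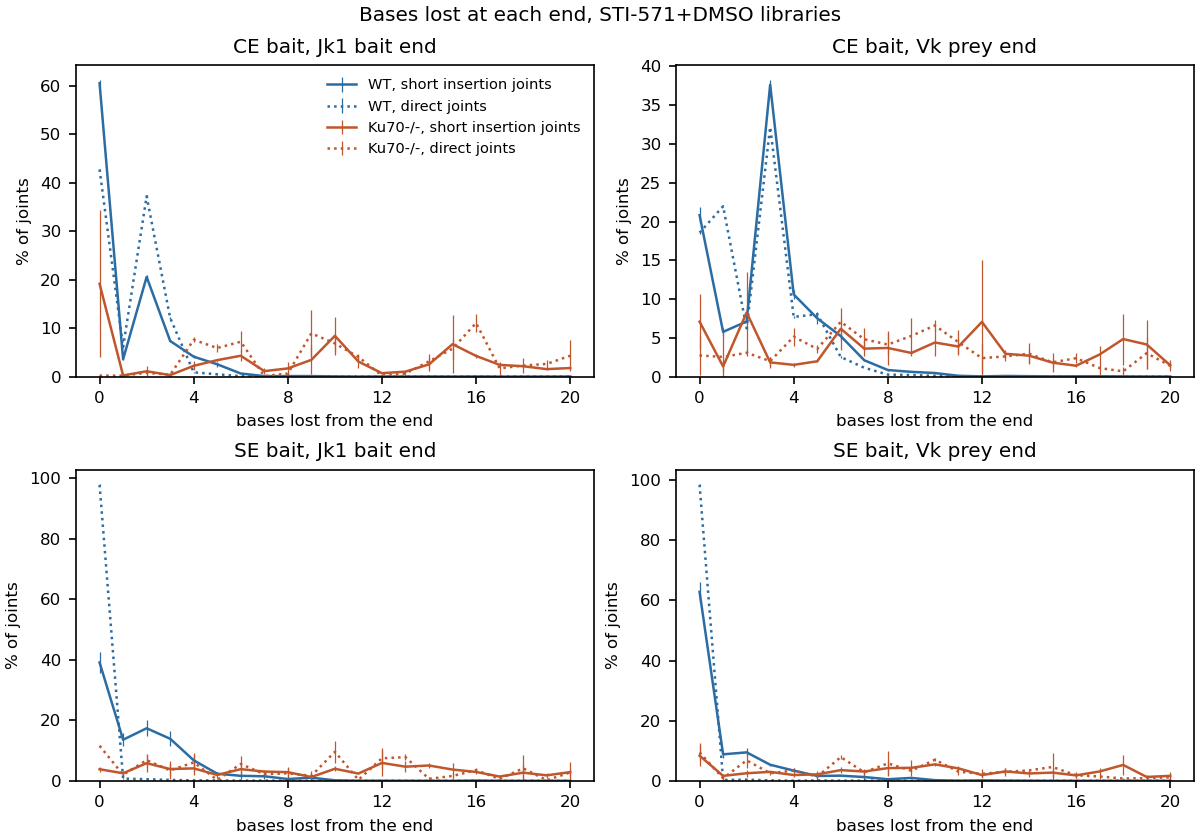
Bases lost from the bait and from the prey end (x axis, 0 to 20) against the share of joints (percent, y axis) for short insertion joints (solid) and direct joints (dotted) with STI-571 and DMSO, by genotype and bait; lines are means and bars SD of 3 libraries. At 0 bases lost from the WT CE bait the short insertion line stands at 60.5% and the direct line at 42.7%, and for the WT SE bait they stand at 39.1% and 97.9%.

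Many of these insertions could also be read as a base that does not match. A short insertion was called readable as a mismatch when the adjoining end had lost at least as many bases and the inserted bases equalled the lost germline bases at all positions but the one next to that end, so that every 1-base insertion beside a trimmed end qualifies. With DMSO this held for 63.8% of WT CE rows, 72.3% of WT SE rows, 67.9% of Ku70-/- CE rows (56.3% without library 1) and 82.5% of Ku70-/- SE rows (77.7% without library 1). What gave rise to them was not tested. Insertions of 2 to 4 bases met it in 42.4% of WT CE rows and 53.2% of Ku70-/- CE rows, where the libraries had 87.4%, 39.01% and 33.1% and the mean without library 1 was 36.05%.

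Short insertions were found at 125 Vκ break sites in WT CE libraries with DMSO and at 104 in Ku70-/- ones. The WT libraries held 44284 to 46317 short insertion rows each and the Ku70-/- ones 795 to 2132. The 2 counts are therefore not read as a difference in site use. Break sites, the cut positions between a Vκ gene and its recombination signal, were taken from signal end joints of arrested WT libraries, which gave 138 sites, 92 of them at annotated Igkv genes of 100. In WT CE libraries with DMSO the most short insertions lay at Igkv12-44 (3.92% ± 0.293), Igkv3-2 (3.73% ± 0.178) and Igkv3-12 (3.39% ± 0.257; SD, n = 3 each). These sites held 2.90%, 3.50% and 2.97% of all Vκ rows. At Igkv12-44 17.4% of the site's rows had a short insertion, against 13.7% at Igkv3-2 and 14.7% at Igkv3-12. In Ku70-/- CE libraries Igkv4-86 and a site at position 68425096 held 12.2% and 12.96% of the rows of library 1, and at most 1.03% of those of another library. Igkv1-135 followed with 1.64%, 4.50% and 6.17%.

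In WT SE libraries the leading sites with DMSO were Igkv16-104 with 6.81%, 7.11% and 6.93%, Igkv1-135 with a mean of 3.84% and Igkv12-44 with 2.96%. Igkv16-104 held 4.16% of all Vκ rows. In Ku70-/- SE libraries Igkv1-135 (4.64% ± 3.01), Igkv1-88 (4.61% ± 5.58) and Igkv6-32 (4.24% ± 2.01) led (SD, n = 3 each), and 11.05% of the rows of library 1 lay at Igkv1-88.

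Some short insertions joined the bait to a Vκ end of the other kind, and some lay at no break site. Break sites and their direction were called where SE rows of arrested WT libraries piled up. A low share of WT SE direct joints away from a site, or of hybrid kind, is thus in part built in. The contrasts that follow are not independent of genotype, bait or kind of joint. With DMSO 12.5% ± 4.63 (SD, n = 3) of WT SE short insertion rows at a break site joined a Vκ coding end (a hybrid joint), against 0.505% of direct rows. Counted once the order turned, with 6.33% and 11.8%, without overlap. In Ku70-/- SE libraries the shares were 56.8% and 48.5% (51.8% and 43.8% counted once). From the CE bait they were 0.285% and 0.0501% in WT and 33.1% and 34.6% in Ku70-/-, and counted once 0.421% and 0.743% in WT and 27.4% and 40.6% in Ku70-/-. Rows more than 200 bp from any break site made up 9.54% of WT SE short insertions with DMSO and 0.298% of direct joints. Here too the order turned when joints were counted once, with 5.37% and 9.66%, without overlap. In these DMSO libraries 64.4%, 72.2% and 58.6% of them lay at positions 68387596 to 68387606, in an intron of Igkv15-103. The sequence read towards the prey there, with the heptamer-like stretch in capitals, is shown because the signal that RAG1/2 cuts begins with the heptamer CACAGTG, and the reverse complement of CAATGTG matches it at 6 of 7 bases (plus strand, chr6:68387576-68387615).
Igkv15-103 intron: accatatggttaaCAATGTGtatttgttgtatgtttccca

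Of the WT cycling SE short insertions 0 of 752 lay away from a break site, which allows a share of up to 0.399%. With L67 and L82-G17 in WT this stretch held 51.8%, 25.8% and 47.3% and then 76.4%, 4.09% and 26.3% of such rows. From the CE bait 0.233% of WT DMSO rows lay away from a site, and 66.99%, 52.1% and 51.7% of these were at positions 69349806 to 69349815, beside a CACTGTG stretch. Position 69349810 among them lies 3 bp from Igkv4-62, which has no called break site. Cycling Ku70-/- libraries had 38.8% to 60.3% of CE rows and 53.2% to 91.0% of SE rows away from any site. The sites were called in arrested WT libraries, so these shares carry the same limit. Direct joints of the cycling Ku70-/- libraries had 12.5% and 2.39% on average. Counted once the ranges were 41% to 46.7% (CE) and 25.9% to 61.1% (SE), and direct joints had 10.7% and 3.49%. The joint of the SE bait with an AG insertion at position 69537856, printed above, held 13.9%, 45.2% and 15.6% of the cycling Ku70-/- SE short insertions. The CE joint with an A insertion at position 68069499 held 8.48%, 12.3% and 10.2% of the CE ones.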

How the data were processed

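HTGTS-JoinT-seq libraries were read from Jκ1 in 48 samples. Before they deposited them, the authors demultiplexed and trimmed the reads, thinned them to 500000 pairs per library, aligned them to mm9 with Bowtie2 and kept duplicate reads. The deposited files list 1 junction per row, with genome and read positions and no normalization; rows were counted here. Members were rows of chromosome 6, 67500000 to 70660000, with 1 to 4 bases between bait and prey. The members, measures and lists were chosen with earlier results of these data known. Sequences and genes came from the NCBIM37 genome and GENCODE vM1. Break sites needed 30 signal end rows in arrested WT libraries, and rows within 200 bp were assigned to them. Group differences used exact two-sided permutation tests on 3 libraries against 3, adjusted by Benjamini-Hochberg over 28 comparisons per measure and 14 genotype differences. Inserted sequences with at least 10 rows per library on average were tested with limma 3.58.1 (R 4.3.3; trend) on log2 of rows per 1000 short insertions, with the value of 1 row of the shallowest library added; adding each library's own value is an alternative. In simulated data for Ku70-/- against WT (DMSO, CE), with 64 sequences tested, the calls were all 3 changed sequences and 2 false ones. False calls were thus a large part of all calls. For L67 against DMSO (WT, CE), with 97 tested, they were all 8 changed and 1 false. Both groups were drawn from the WT DMSO profile with independent noise. Single amplified joints and the makeup of library 1 were not simulated, so the check does not cover them. With each library's own value there were 8 and 1 false calls. Named sequences were, per fit, up to 3 with the largest rise and up to 3 with the largest fall that passed without overlap, and the 3 with the highest mean share in each DMSO group. Also named were the CE bait palindromes and, for arrest in WT (CE), the sequences that passed with at least 10 rows per library in both groups. Named sites were the 3 with the most rows in each DMSO group. Python 3.11.15, pandas 2.3.3, numpy 2.4.6, SciPy 1.17.1 and matplotlib 3.10.9 were used.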

Additional observations from a re-analysis of the deposited data

Results flagged for a closer look

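The difference in the short insertion share between arrested (STI-571 and DMSO) and cycling cells was itself different between Ku70-/- and WT. This concerns shares, as mean short insertion rows in Ku70-/- were 712 in cycling and 1662 in DMSO libraries (CE), and 290 and 1471 (SE). Vκ rows rose more, from 7946 to 107487 (CE) and from 4251 to 146303 (SE). For the CE bait the Ku70-/- difference minus the WT difference was −8.55 percentage points, and for the SE bait −6.86 points (exact permutation within genotype, two-sided, p = 0.005, adjusted p = 0.035 for each). The null of this test is no effect of arrest in either genotype. In Ku70-/- all 3 arrested libraries lay below all 3 cycling libraries with either bait, and in WT all 3 lay above. The difference did not pass when each joint was counted once (−10.2 points for the CE and 7.11 for the SE bait; exact permutation, adjusted p = 0.846 for both), when library 1 of Ku70-/- DMSO was left out as well (−18.7 and −1.14 points; adjusted p = 0.07 and 0.869), or within 200 bp of a break site (−6.10 and −2.48 points; adjusted p = 0.07 for both).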

How the results depend on the processing

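Of 950 alternative values for 98 results, 58 turned direction. Permutation tests of 2 groups could not pass the threshold, so their side of it says nothing about stability. The cause of these turns, and of the calls lost below, was not tested. Counted once, and then counted once without the inserted bases in the key, the short insertion share differed by −0.260 and −0.161 points for L67 against DMSO (WT, CE), 4.52 and 3.82 for arrest (Ku70-/-, CE), −8.60 and −7.66 for L67 (Ku70-/-, CE), −8.61 and −7.66 for L82-G17 (Ku70-/-, CE), −39.7 and −37.2 for Ku70-/- against WT (cycling, SE), −2.61 and −2.04 for L67 (WT, SE), 9.34 and 8.40 for arrest (Ku70-/-, SE), −9.25 and −8.20 for L67 (Ku70-/-, SE), −9.38 and −8.38 for L82-G17 (Ku70-/-, SE), and for SE against CE bait 21.3 and 19.4 (WT, cycling), 8.73 and 6.23 (WT, DMSO) and 2.23 and 2.10 (Ku70-/-, DMSO). Counted once without library 1 of Ku70-/- DMSO, the share differed by −3.99 for arrest (Ku70-/-, CE), in the direction of the deposited rows, 1.09 for arrest (Ku70-/-, SE), −0.0903 for L67 and −0.0992 for L82-G17 (Ku70-/-, CE), −1.003 for L67 and −1.13 for L82-G17 (Ku70-/-, SE) and 2.49 for SE against CE bait (Ku70-/-, DMSO). Without the inserted bases in the key, arrest in WT SE libraries gave −2.66. With insertions of 2 to 4 bases only, L67 (WT, CE) gave −0.0665 and SE against CE bait (Ku70-/-, cycling) 0.809. Without insertions readable as a mismatch, L67 (WT, CE) gave −0.0246 and L82-G17 (Ku70-/-, SE) −0.0130.

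The genotype difference in arrest was −10.2, −6.73 and −6.10 points for the CE bait, and 7.11, 11.1 and −2.48 for the SE bait, when counted once, counted once without the inserted bases in the key, and within 200 bp of a break site; counted once without library 1 it was −18.7 and −1.14. None of these passed. Counted once without library 1, Ku70-/- against WT (DMSO, SE) gave −0.0425 bases in mean length, −2.82 points in G and C share and 3.35 points in palindromic share. Counted once, mean length differed between Ku70-/- and WT by −0.0836 (DMSO, CE), −0.0116 (L67, CE), −0.0760 (DMSO, SE), −0.0331 (L67, SE) and −0.000266 bases (L82-G17, SE), by 0.136 for arrest (WT, SE) and by 0.00649 for SE against CE bait (WT, DMSO). Counted once, the G and C share differed by 0.164 points for L82-G17 (WT, CE) and −2.21 for Ku70-/- against WT (DMSO, SE). The palindromic share differed by 2.11 (DMSO) and 6.21 (L67) points for Ku70-/- against WT with the SE bait, and the untrimmed bait share by 0.978 for L82-G17 (WT, CE) and 3.20 for SE against CE bait (WT, DMSO).

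Inserted sequences that passed for Ku70-/- against WT (DMSO, CE) were 9 with at least 30 rows per library and 23 with the value of 1 row of each library added. For arrest (WT, CE) they were 9 counted once, 10 with at least 30 rows and 10 with each library's own value. L67 (WT, CE) gave 0 counted once, and L82-G17 (WT, CE) gave 2 counted once and 2 with at least 30 rows. Arrest (Ku70-/-, CE) gave 0 counted once, 2 with at least 30 rows and 2 with each library's own value, and L82-G17 (Ku70-/-, CE) gave 1 counted once and 2 with at least 30 rows. Ku70-/- against WT (SE) gave 19 counted once, arrest (WT, SE) 9 with at least 30 rows, and L82-G17 (WT, SE) 1 counted once. Arrest (Ku70-/-, SE) gave 0 counted once, 4 with at least 30 rows, 5 with 5 rows added and 2 with each library's own value. Counting once and the minimum of 30 rows change how many sequences are tested. The numbers tested are not given for them, so these counts are not read as more or less change than in the deposited rows.

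Leaving out each library in turn, the share difference ranged from −0.0227 to 0.188 points for L67 (WT, CE), −0.118 to 0.396 for L67 (Ku70-/-, CE), −0.252 to 0.261 for L82-G17 (Ku70-/-, CE), −0.112 to 0.442 for L67 (Ku70-/-, SE) and −0.162 to 0.391 for L82-G17 (Ku70-/-, SE). Sequences that passed ranged from 9 to 36 for Ku70-/- against WT (CE), 9 to 30 for arrest (WT, CE), 0 to 1 for L67 and for L82-G17 (WT, CE), 1 to 3 for arrest (Ku70-/-, CE), 3 to 6 for Ku70-/- against WT (SE), 0 to 1 for L82-G17 (WT, SE), 0 to 5 for arrest (Ku70-/-, SE) and 0 to 1 for L67 (Ku70-/-, SE). The number of sequences tested can differ with each library left out, so these ranges are not shares of those tested. No paired analysis was possible because the labels give no replicate numbers. Leaving out joints seen in all 3 cycling libraries, adding each library's own value, and counting once without library 1 were chosen after seeing the data. Cycling Ku70-/- libraries, with few distinct joints, limit what can be said of them.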
